A study of Mus musculus with 38 samples.

Results

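Interferon-stimulated genes are the genes that cells switch on when they sense an interferon, and 38 of them were followed through cultured mouse cochleae. A probe carried the symbol of 36 of the 38 genes, among the 16593 gene symbols and 25697 probes of the array. No probe was matched to Dtx3l, the partner of Parp9, or to Ifi44. Each gene was read by 1 probe, the one of highest mean over the 38 arrays. The 38 genes were given as a list, and 2 of them, Phf11a and Lgals9, had been put on it because they rose in 1 of the comparisons, spiral ganglion at 24 h. Their values in that comparison are therefore a description. The list as a whole was chosen with earlier results of these data known.

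The tissue came from C57BL/6 mice of postnatal day 3 to 5. Cochlear explants were exposed to 0.4 mM kainate, a glutamate receptor agonist that damages the afferent endings of auditory neurons, for 2 h, or were left without it as controls. They were cultured for 5, 24 or 72 h and then divided into the spiral ganglion (SG), which holds the auditory neurons with their glia and connective tissue, and the remaining organ of Corti (OC), which holds the hair cells and supporting cells. The study had first let the explants attach for up to 24 h, so these times do not run from dissection. The arrays of control SG numbered 4 at 5 h, 2 at 24 h and 3 at 72 h, and those of SG after kainate 4, 3 and 3. The arrays of control OC numbered 3, 4 and 3, and those of OC after kainate 4, 2 and 3. The study cultured 4 explants per treatment and time and divided each into SG and OC. SG and OC arrays with the same number were taken to be from the same explant, which the labels do not state. Values are the authors' quantile-normalized log2 signals, so that a difference of 1 is a doubling of signal. Array signals of different probes are not comparable, and levels were compared only between arrays of 1 probe.

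Interferons bind receptors at the cell surface and act through JAK kinases and STAT proteins. Type I and type III interferons activate a complex that holds STAT2 and IRF9 and binds the interferon-stimulated response element (ISRE) in the promoters of its targets. Targets of interferon gamma often carry another element, the gamma-activated site (GAS). The products of the targets sense viral RNA, cut or bind it, tag proteins with ISG15, or attack the vacuoles of intracellular microbes, and Usp18 damps the pathway again. A low level of several of these genes is present in unstimulated tissue and in tissue macrophages.

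The promoters of 6 genes are shown, since the ISRE is the element that ties many of these genes to interferon signalling. RefSeq promoter windows (GRCm38.p6, 250 bases before to 50 after the start) were matched by symbol for 27 of the 36 genes. The core searched was GAAANNGAAA on either strand, and matches that overlap were each counted. It was in a window of 15 of the 27 genes, against 3.44% of all 32851 windows and 3.99% of all 27025 symbols. The GAS core TTCNNNGAA, which reads the same on both strands, was in a window of 7 of the 27 (Bst2, Ifi35, Ifit2, Igtp, Irf1, Isg20 and Oas1a), against 9.55% of all symbols. The sequences are the 160 bases before the start, 5′ to 3′ on the strand of the gene, with ISRE cores in capitals. Isg15, Ifit3, Rsad2 and Gbp2 were among the genes that fell most in culture, and Irgm1 and Bst2 hold the core but did not fall:
Isg15 (chr4:156200819-156200978, minus strand): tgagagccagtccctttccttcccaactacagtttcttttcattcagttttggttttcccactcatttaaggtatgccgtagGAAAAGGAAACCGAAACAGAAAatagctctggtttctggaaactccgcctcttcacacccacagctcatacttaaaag
Ifit3 (chr19:34583369-34583528, plus strand): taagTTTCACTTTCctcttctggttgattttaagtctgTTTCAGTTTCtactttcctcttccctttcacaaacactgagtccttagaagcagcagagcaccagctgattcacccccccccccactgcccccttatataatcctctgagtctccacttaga
Rsad2 (chr12:26456453-26456612, minus strand): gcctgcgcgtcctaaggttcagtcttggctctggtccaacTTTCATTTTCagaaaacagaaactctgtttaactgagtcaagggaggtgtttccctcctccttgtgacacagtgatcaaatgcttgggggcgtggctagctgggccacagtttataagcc
Gbp2 (chr3:142620503-142620662, plus strand): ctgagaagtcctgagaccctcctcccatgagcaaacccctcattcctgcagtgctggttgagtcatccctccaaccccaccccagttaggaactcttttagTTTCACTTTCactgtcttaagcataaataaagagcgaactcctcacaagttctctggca
Irgm1 (chr11:48871421-48871580, minus strand): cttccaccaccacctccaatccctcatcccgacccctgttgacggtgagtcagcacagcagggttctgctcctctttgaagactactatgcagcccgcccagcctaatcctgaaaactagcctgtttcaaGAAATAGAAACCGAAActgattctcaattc
Bst2 (chr8:71537473-71537632, minus strand): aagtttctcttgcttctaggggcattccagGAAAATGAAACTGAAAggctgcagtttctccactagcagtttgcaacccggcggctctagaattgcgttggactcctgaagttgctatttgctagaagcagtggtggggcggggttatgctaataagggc

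In the Isg15, Irgm1 and Bst2 promoters the cores overlap and form an uninterrupted run of repeats, 3 cores in Isg15 and 2 in each of the others. In Ifit3 the 2 cores stand apart, and in Rsad2 and Gbp2 there is 1, in each case on the opposite strand to the gene. A match is a description of the letters and not of a bound site.

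How many of the 36 genes could be measured set what each comparison could show. A gene was taken as above background on an array where its detection p was under 0.01. By this rule 8 of the 36 were above background on all 38 arrays, 11 on 16 to 37, 7 on 1 to 4 and 10 on none. Single arrays had between 9 and 24 of the 36 above background. The 8 were the transcription factors Irf1 and Irf9, Oasl2, Bst2, the GTPases Igtp and Irgm1, Ifi35 and Lgals3bp. The 10 without any array were the RNA sensor Ifih1, the ubiquitin ligase Trim25, Oas1a, Oas3, Ifit1, Mx1, Iigp1, Parp9, Xaf1 and the nuclear body protein Sp100. C57BL/6 mice carry a defective allele of Mx1, the influenza restriction factor.

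The clearest change in these genes was a fall with time in culture in the SG. Between 5 and 72 h in control explants, 14 of the 36 fell and 2 rose at an adjusted p under 0.05 (limma, Benjamini-Hochberg over all 25697 probes), and 20 did not pass. Over all probes, 7.26% were lower and 8.18% higher by the same rule. The median difference of the 36 was -0.25 against 0.01 over all probes, and 29 of the 36 were below 0. Oasl1, Rtp4 and Phf11a were above background on at most 1 of those 7 arrays, so for 3 of the 14 no fold can be given. The other 11 were all among the 19 genes above background on 16 or more arrays.

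Rsad2, which encodes viperin, an enzyme that blocks the replication of many viruses, fell most. Its log2 signal in control SG was 10.99, 11.25, 11.22 and 10.11 at 5 h and 7.55, 8.02 and 7.94 at 72 h. All 3 late arrays lay below all 4 early ones, and none of the 3 was above background. The difference was -3.05 ± 0.38 (SE; adjusted p = 3.9e-07), a level at least 6.50-fold lower when the late group is set at the lowest signal above background. Array 4 at 5 h was the lowest of its group for Rsad2, and also for Usp18 and Isg15.

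The ISG15 system fell as a pair. Isg15 is a ubiquitin-like protein that is attached to other proteins, and Usp18 removes it again and holds back signalling at the type I interferon receptor. In control SG Isg15 read 10.83, 10.74, 10.31 and 9.37 at 5 h, then 7.94, 8.24 and 8.23 at 72 h, a fall of 4.51-fold (log2 difference -2.17 ± 0.30, adjusted p = 3.1e-06). Usp18 read 10.68, 10.67, 10.59 and 9.76 at 5 h and 7.56, 7.68 and 8.21 at 72 h, a fall of 6.09-fold (-2.61 ± 0.35, adjusted p = 1.4e-06), with 1 of the 3 late arrays above background. In both genes the early and late arrays were separated by more than 1 log2 unit.

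Among the IFIT proteins, which bind foreign RNA, 1 of 3 fell. Ifit3 read 11.58, 10.62, 11.24 and 10.66 at 5 h and 8.16, 8.48 and 8.80 at 72 h, a fall of 5.84-fold (-2.55 ± 0.38, adjusted p = 9.2e-06). Its other 2 probes, dimmer and above background on 8 and 10 of the 38 arrays, differed by -0.61 and -0.85, both with an adjusted p under 0.05. Ifit2 was present at 9.76 ± 0.06 (SD, n = 4) at 5 h and 9.51 ± 0.30 (n = 3) at 72 h and did not pass the test.

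The interferon-inducible GTPases, which coat and disrupt the vacuoles of intracellular bacteria and parasites, did not move as 1 group. Gbp2 (-2.63 ± 0.41), Gbp3 (-2.24 ± 0.37) and Igtp (-1.13 ± 0.23) fell, while Irgm1 rose by 0.56 ± 0.13 on the log2 scale (adjusted p = 0.0021). Gbp2 read 11.63, 10.54, 10.60 and 10.02 at 5 h and 7.28, 8.49 and 8.43 at 72 h. Gbp3 read 11.22, 10.06, 10.24 and 10.13 at 5 h and 7.77, 8.35 and 8.39 at 72 h, and its other probe above background differed by -1.93. Irgm1 read 13.87, 14.14, 13.97 and 13.64 at 5 h, then 14.56, 14.42 and 14.42 at 72 h. The Irgm1 call rests on its brightest probe: its next probe, above background on all 38 arrays at a mean of 9.73, differed by 0.12 (adjusted p = 0.76).

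**Figure D1:**
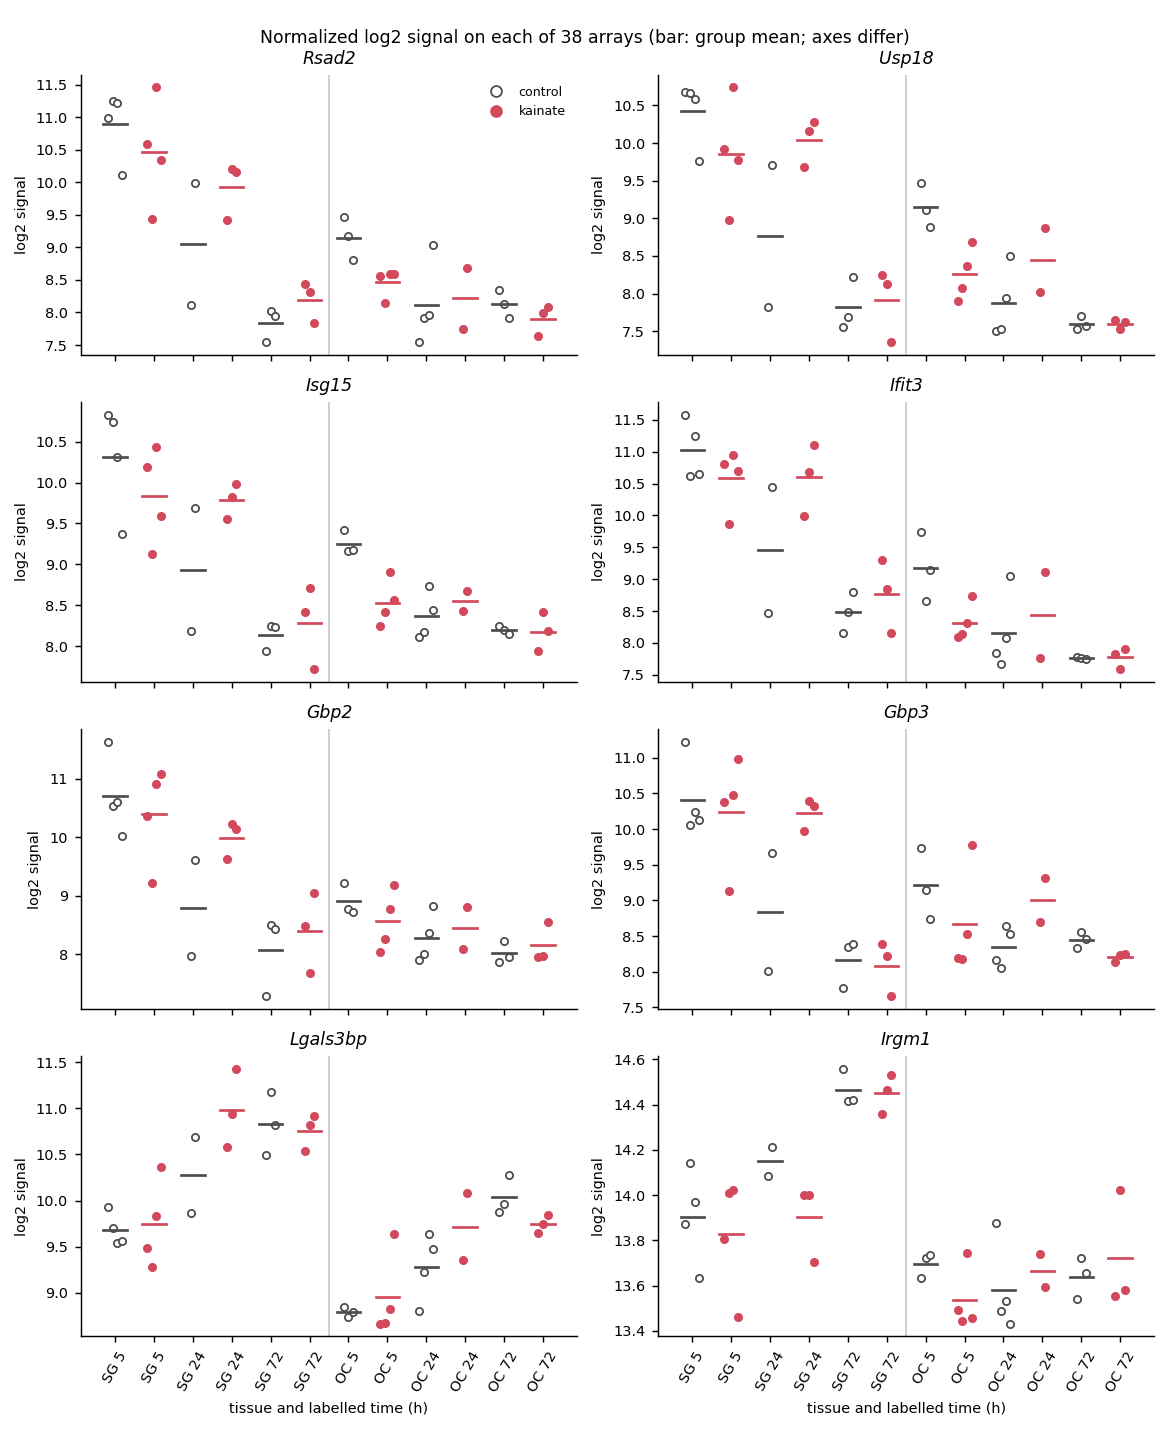
Normalized log2 signal of 8 genes on each of the 38 arrays, with SG left and OC right of the grey line, the labelled time in hours on the x axis, open points for control, filled points for kainate, bars for group means and a separate y axis for each gene. Rsad2, Usp18, Isg15, Ifit3, Gbp2 and Gbp3 are high in SG at 5 h and low at 72 h, and Lgals3bp runs the other way.

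Genes of other roles fell as well. Of the signalling factors, Irf1 fell from 12.03 ± 0.22 (SD, n = 4) to 11.24 ± 0.42 (n = 3), a difference of -0.79 ± 0.18 (SE; adjusted p = 0.0022), and Irf7, Irf9 and Stat2 did not pass. Of the oligoadenylate synthetases and their relatives, which activate RNase L or bind nucleic acid, Oasl2 fell from 10.79 ± 0.40 to 9.10 ± 0.59 (-1.69 ± 0.40, adjusted p = 0.0029). Mx2, a GTPase of the dynamin family, was at least 2.20-fold lower at 72 h, with all 4 early arrays above background and none of the late ones. Lgals9, a galactoside-binding lectin, was at least 1.44-fold lower in the same way (adjusted p = 0.00031). These 2 times were not used to pick Lgals9.

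Lgals3bp, a secreted glycoprotein that binds galectins and matrix, was with Irgm1 1 of the 2 genes that rose. It read 9.93, 9.70, 9.54 and 9.56 in control SG at 5 h and 10.50, 11.17 and 10.82 at 72 h, a rise of 2.22-fold (1.15 ± 0.25, adjusted p = 0.0011). All late arrays lay above all early ones. Bst2, or tetherin, which holds budding virions at the cell surface, read 9.56 ± 0.20 and 9.91 ± 0.47 and did not pass.

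The explants that had received kainate gave a separate set of arrays for the same interval. There, 11 of the 36 fell and 3 rose between 5 and 72 h in the SG, with 7.38% of all probes lower and 7.25% higher. The 11 were all among the 14 that fell in control SG. The overlap of both lists over all probes was not counted, so whether it is particular to these genes cannot be told. Igtp, Oasl2 and Rtp4 passed only in control explants, and Ifi35, which binds the interferon-induced protein Nmi, rose only after kainate (0.43 ± 0.14, adjusted p = 0.029). The difference between the treatments was not tested for this interval. Rsad2 read 10.60, 9.44, 11.46 and 10.34 at 5 h and 8.43, 8.32 and 7.84 at 72 h after kainate, a fall of 4.79-fold (-2.26 ± 0.38, adjusted p = 5.7e-05). Gbp3 fell by 2.15 ± 0.37 and Usp18 by 1.94 ± 0.35 on the log2 scale, and Mx2 was at least 1.85-fold lower. Irgm1 (0.63 ± 0.13) and Lgals3bp (1.01 ± 0.25) rose here too.

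**Figure D2:**
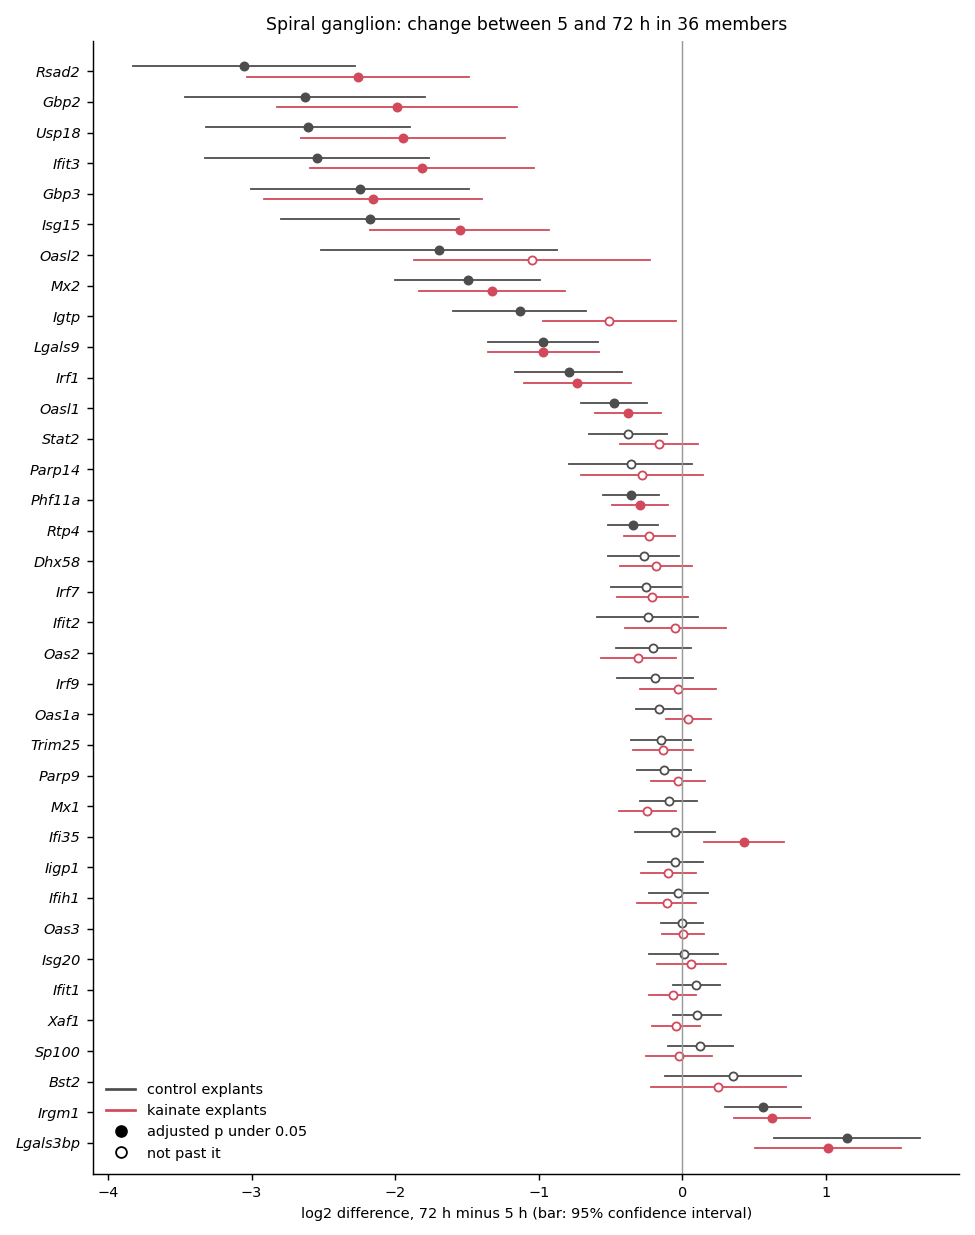
Log2 difference between 72 and 5 h in the SG for each of the 36 genes, ordered by the change in control explants, with the 95% confidence interval from the fit; grey is control, red is kainate, and filled points passed an adjusted p under 0.05. Rsad2 (-3.05 in control, -2.26 after kainate) stands at the low end and Lgals3bp (1.15 and 1.01) at the high end.

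Markers of other cell types moved over the same interval. In control SG, 11 of 17 neuron markers were lower at 72 h (median of the list -1.05), against 7.26% of all probes lower. So were 6 of 12 fibroblast markers (median -0.73) and 2 of 9 markers of Schwann and satellite glia (median -0.47). The mean of the neuron list was 10.10 ± 0.14 (SD, n = 4) at 5 h and 9.11 ± 0.08 (n = 3) at 72 h. On the same arrays the endothelial and pericyte list was 9.06 ± 0.10 and 8.86 ± 0.19. The hair cell list was 8.62 ± 0.12 and 8.75 ± 0.30, and that of supporting cells and epithelium 10.78 ± 0.09 and 10.71 ± 0.20. Of 20 macrophage and leukocyte markers 1 was lower and 1 higher (median 0.08), and their mean was 8.86 to 9.18 at 5 h and 8.38 to 9.71 at 72 h. The defining markers Ptprc and Itgam were above background on no array, and neither were the neuron markers Nefl and Snap25. The part of these cells in the fall of the interferon-stimulated genes was not tested. In bulk tissue, fewer cells of a type and less RNA per cell cannot be told apart.

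The study's clustering picture colours the arrays by 5 batches, and the fall was also read within batch. One batch held a control SG array of each time, and there Rsad2 differed by -3.44, Ifit3 by -3.42, Usp18 by -3.12, Gbp2 by -4.36 and Isg15 by -2.89 between 72 and 5 h. The pair was array 2 at 72 h and array 1 at 5 h. Their means over the 36 genes were the lowest (8.22) and the highest (9.16) of their groups. All of these differences were larger than those of the fit. After kainate, 2 batches held both times, with Rsad2 at -2.50 and -1.12, Isg15 at -1.87 and -0.41 and Oasl2 at -2.01 and 0.45. In these batches 29 and 20 of the 36 genes were lower and 7 and 16 higher, with medians of -0.22 and -0.002. These are differences of single arrays and have no test. A fit that blocked on batch passed 16 of the 36 in control SG and 12 after kainate.

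At 24 h the count of genes below their 5 h level depended on 1 array. In control SG at 24 h, 7 of the 36 were lower than at 5 h (Rsad2, Usp18, Gbp2, Mx2, Isg15, Igtp and Gbp3) and none was higher, against 1.31% of all probes lower. Rsad2 read 8.12 and 9.99 on the 2 arrays, Usp18 7.83 and 9.71, Ifit3 8.48 and 10.45 and Oasl2 8.33 and 10.27. Array 2 was the lower in each, and its mean over the 36 genes was 8.19 against 8.77 on array 3 and 8.22 to 8.38 on the control SG arrays at 72 h. Without array 2 none of the 36 passed, and without array 3 the count was 12. Array 2 also had the higher mean of hair cell markers, 9.33 against 8.72, and the lower mean of macrophage markers, 8.38 against 9.32. Of the 17 neuron markers 9 were lower at 24 than at 5 h in control SG. Between 24 and 72 h none of the 36 passed by limma in control SG, against 2.21% of all probes. At an unadjusted p under 0.05 there were 6 of the 36, and 3376 of all 25697 probes.

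For the interval from 5 to 24 h after kainate the counts were smaller. None of the 36 fell in SG, and 3 rose, Lgals3bp, Oas2 and the picked Phf11a, against 0.202% of all probes higher. Lgals3bp rose from 9.74 ± 0.48 (SD, n = 4) to 10.98 ± 0.43 (n = 3), a difference of 1.24 ± 0.25 (SE; adjusted p = 0.017). Rsad2 was 10.46 ± 0.83 and 9.93 ± 0.43 and Usp18 9.85 ± 0.72 and 10.04 ± 0.32, and neither passed. The count ran from 0 to 3 on leaving out single arrays, with 0 without kainate array 2 at 5 h or kainate array 3 at 24 h, and a fit on the SG arrays alone gave 0.

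**Figure D3:**
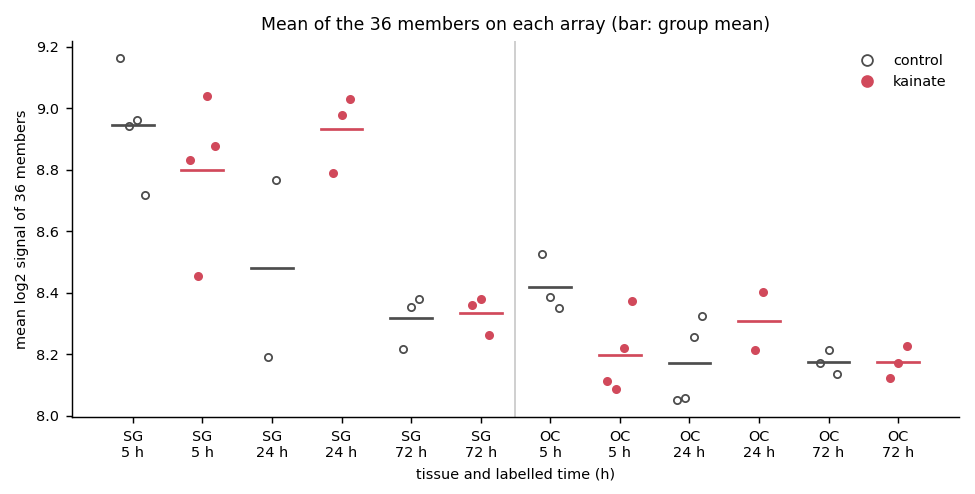
Mean log2 signal of the 36 genes on each array, by tissue, labelled time and treatment (open, control; filled, kainate; bar, group mean). The 4 control SG arrays at 5 h lie between 8.72 and 9.16 and the 3 at 72 h between 8.22 and 8.38, while the 2 control SG arrays at 24 h are at 8.19 and 8.77.

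At 5 h, 13 of the 36 read lower in control OC than in control SG, as did 6.51% of all probes. Fewer of the 36 passed with time in OC than in SG, and this held over all probes too (1.76% against 7.26% lower). In control OC, 3 of the 36 fell between 5 and 72 h (Usp18, Mx2 and Ifit3) and Lgals3bp rose, against 1.76% of all probes lower and 1.94% higher. Usp18 read 9.47, 9.11 and 8.88 at 5 h and 7.53, 7.71 and 7.56 at 72 h, and was at least 2.07-fold lower (adjusted p = 0.012). Ifit3 read 9.75, 8.65 and 9.15, then 7.77, 7.76 and 7.75, and was at least 2.12-fold lower (adjusted p = 0.043). Mx2 was at least 1.23-fold lower (adjusted p = 0.033). The count of 4 calls was 1 to 3 when single arrays were left out, 1 without control OC array 1 at 5 h. None of the late OC arrays was above background for these 3 genes. Lgals3bp read 8.85, 8.74 and 8.79 at 5 h and 9.87, 9.96 and 10.27 at 72 h, a rise of 2.37-fold (1.24 ± 0.27, adjusted p = 0.0043). Of the 20 macrophage markers 1 rose in this interval (median 0.43), and of the 17 neuron markers 1 fell (median -0.12).

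Whether the fall differed between the tissues was tested directly. The change from 5 to 72 h in control SG was more negative than in control OC for Rsad2 (difference of the changes -2.03 ± 0.56, adjusted p = 0.028) and Irf1 (-0.98 ± 0.27, adjusted p = 0.029), against 2.09% of all probes. For the other 34 genes the difference of the changes did not pass. Irf1 read 12.03 ± 0.22 (SD, n = 4) in control SG and 10.88 ± 0.13 (n = 3) in control OC at 5 h, and 11.24 ± 0.42 and 11.06 ± 0.15 (n = 3 each) at 72 h. On leaving out single arrays the count ran from 0 to 3. It was 0 without control OC array 2 or 3 at 5 h, control OC array 3 at 72 h or control SG array 2 at 72 h. With the explant, as taken from the number that SG and OC arrays share, as a random block the count was 5. After kainate, 1 of the 36 passed in the OC: Irf9, the DNA-binding part of the STAT complex, rose by 0.51 ± 0.13 on the log2 scale from 9.49 ± 0.16 (SD, n = 4) at 5 h (adjusted p = 0.014), against 2.46% of all probes higher. Without kainate OC array 2 at 5 h, or 3 or 4 at 72 h, it did not pass. No member passed between 5 and 24 h in the OC by limma, against 0.0623% of all probes in control and 0% after kainate. At an unadjusted p under 0.05 there were 9 and 5 of the 36, and 1688 and 1933 of all 25697 probes.

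Averaged over the 3 times, the control SG had more of some of these transcripts than the control OC. Of the 36, 14 were higher in SG and none was lower, against 11.1% and 12% of all probes. Every role but the RNA sensors and the oligoadenylate synthetases held at least 1 of them. By time, the median difference of the 36 was 0.28 at 5 h, 0.18 at 24 h and 0.05 at 72 h. At 72 h 15 of the 36 were below 0. Ifit2 and Lgals3bp were higher in SG at each of the 3 times, and Parp14 and Irgm1 at 2 of them.

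Ifit2 separated the tissues most sharply. It read 9.71 to 9.83 on the 4 control SG arrays at 5 h and 8.21 to 8.53 on the 3 control OC arrays, and 9.28 to 9.85 against 7.90 to 8.38 at 72 h. Over the 3 times it was 2.42-fold higher in SG (1.27 ± 0.11, adjusted p = 3.6e-11), and the arrays of the 2 tissues did not overlap. Parp14, a mono-ADP-ribosyltransferase, was 1.88-fold higher in SG (0.91 ± 0.13, adjusted p = 1.3e-06), at 9.34 ± 0.44 (SD, n = 4) against 8.34 ± 0.28 (n = 3) at 5 h and 8.98 ± 0.17 against 7.98 ± 0.16 (n = 3 each) at 72 h. Lgals3bp was 1.86-fold higher (0.89 ± 0.15) and Irgm1 1.45-fold (0.53 ± 0.08), and the next probe of Irgm1 differed by 0.72 in the same direction (adjusted p = 6.2e-06).

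Most of the genes that fell in culture differed between the tissues at 5 h, and their difference at 72 h did not pass. At 5 h, 13 of the 36 were higher in control SG (6.51% of all probes), and at 24 h and 72 h 4 were each time (3.85% and 6.18%). Rsad2 was 10.89 ± 0.54 in SG and 9.15 ± 0.33 in OC at 5 h, a difference of 1.74 ± 0.38 (SE; adjusted p = 0.0012), and 7.84 ± 0.25 and 8.13 ± 0.21 at 72 h. Gbp2 differed by 1.79 ± 0.41 at 5 h, with 10.70 ± 0.67 against 8.91 ± 0.27, and read 8.07 ± 0.69 and 8.02 ± 0.18 at 72 h. Ifit3 differed by 1.84 ± 0.38 at 5 h, and Isg15 by 1.06 ± 0.30. Of these, the interaction with time passed for Rsad2 and Irf1 as given above.

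**Figure D4:**
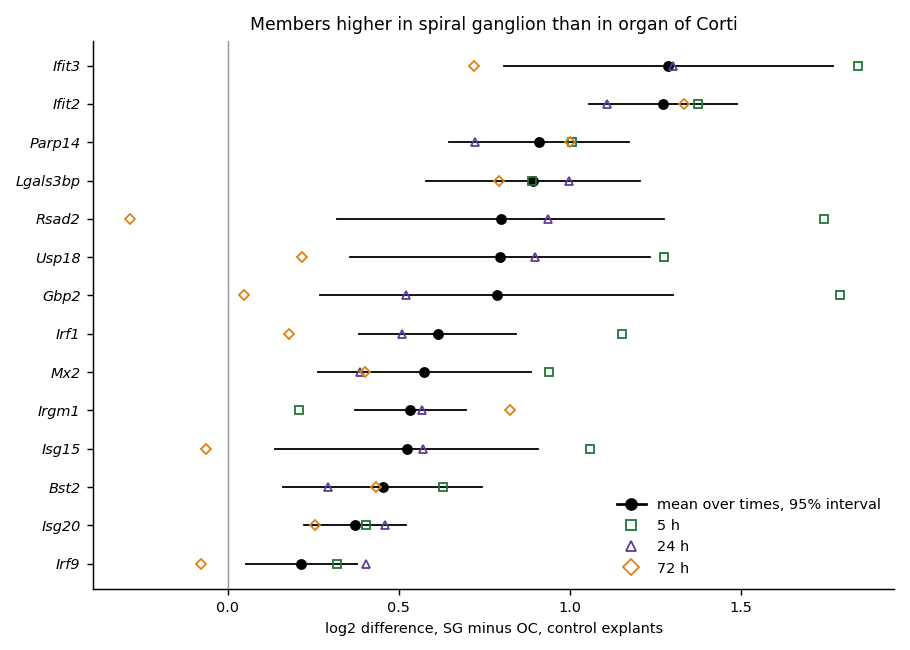
Log2 difference between control SG and control OC for the 14 genes that passed over the 3 times, with the black point and bar for the mean over times and its 95% confidence interval and coloured symbols for the difference at 5, 24 and 72 h. Ifit2 (1.27 over the times) keeps its difference at each time, while Rsad2 runs from 1.74 at 5 h to a value below 0 at 72 h.

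Cell type markers also differed between the tissues, where 11.1% of all probes were higher in SG and 12% lower. Of 14 hair cell markers, 12 were lower in SG and 1 was higher (median -1.70), as the labels of the tissues would have it. Of 20 macrophage and leukocyte markers 7 were higher in SG and none lower (median 0.49), of 12 fibroblast markers 7 were higher and 1 lower (median 0.66), and of 9 Schwann and satellite glia markers 4 were higher and 1 lower (median 0.06). Of 14 endothelial and pericyte markers 2 were higher and 1 lower (median 0.10), of 17 neuron markers 8 and 5 (median 0.07), and of 13 markers of supporting cells and epithelium 1 was higher and 9 lower (median -0.67). At 5 h the macrophage list had means of 8.86 to 9.18 in control SG and 8.03 to 8.32 in control OC, and the glia list 9.40 to 9.63 and 8.63 to 8.89. Their part in the difference was not tested. A fit that blocked on batch passed 8 of the 36, and one that left out control SG array 3 at 24 h passed 7. Within the batches that held both tissues at 5 h, Ifit3 was higher in SG by 1.69 and 1.84 and Rsad2 by 2.05 and 1.52, and at 72 h Ifit3 by 0.72 and 0.39, with Rsad2 at -0.11 and -0.79.

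The effect of kainate was the study's own question, and in 1 of the 6 combinations of tissue and time more than 1 of these genes passed. In SG at 24 h, 7 of the 36 were higher after kainate at the unadjusted p under 0.005 that the study used, and none was lower, against 0.665% of all probes higher. Phf11a and Lgals9 are 2 of the 7 and had been picked on this contrast. The other 5, of 34 genes not picked on it, were Irf7, Oas2, Oasl2, Gbp3 and Usp18. The list as a whole was chosen with earlier results of these data known, so these counts are a description too. Over all 25697 probes 1 of the 36, Phf11a, had an adjusted p under 0.05, against 0.0272% of probes, and it is a picked gene. The median difference of the 36 was 0.30 against -0.01 over all probes.

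Phf11a, a PHD finger protein, read 7.34 and 7.40 in control SG at 24 h and 8.26, 8.05 and 7.87 after kainate. It was above background on 2 of the 3 kainate arrays and on no other of the 38, so no fold is given. In control SG it was 7.58 ± 0.18 (SD, n = 4) at 5 h and 7.22 ± 0.15 (n = 3) at 72 h, and after kainate 7.60 ± 0.11 (n = 4) and 7.31 ± 0.08 (n = 3). A second Phf11a probe, above background on 1 array, differed by 0.62 in SG at 24 h, and its remaining probe, at background throughout, by -0.02. Lgals9 read 7.66 and 8.46 in control and 8.81, 9.08 and 9.39 after kainate, a 2.05-fold difference.

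Irf7, the transcription factor that amplifies type I interferon production, showed the same shape as Phf11a. It read 7.11 and 7.51 in control SG at 24 h and 7.80, 8.02 and 8.23 after kainate (adjusted p = 0.065 by limma), and was above background on 2 of the kainate arrays only. Oas2 read 7.35 and 7.53 against 7.80, 8.09 and 8.43 (adjusted p = 0.13 by limma), again above background on 2 kainate arrays and nowhere else. In all 3 genes the kainate arrays lay above both control arrays, and above every OC array. The control arrays were at background, so the fitted differences of these genes, here and further on, are not folds.

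Oasl2, Gbp3 and Usp18 were bright enough for a fold. Oasl2 read 8.33 and 10.27 in control and 10.69, 11.34 and 11.18 after kainate, a difference of 3.42-fold (1.77 ± 0.48, adjusted p = 0.26 by limma). Gbp3 read 8.01 and 9.67 against 9.98, 10.39 and 10.32 (2.62-fold, 1.39 ± 0.45, adjusted p = 0.43). Usp18 read 7.83 and 9.71 against 9.68, 10.16 and 10.29 (2.42-fold, 1.28 ± 0.42, adjusted p = 0.43). For Usp18 the ranges touched, since control array 3 lay just above kainate array 1. Isg15 (0.85 ± 0.36), Ifit3 (1.13 ± 0.46), Gbp2 (1.20 ± 0.49) and Rsad2 (0.88 ± 0.45) had positive differences that did not pass.

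**Figure D5:**
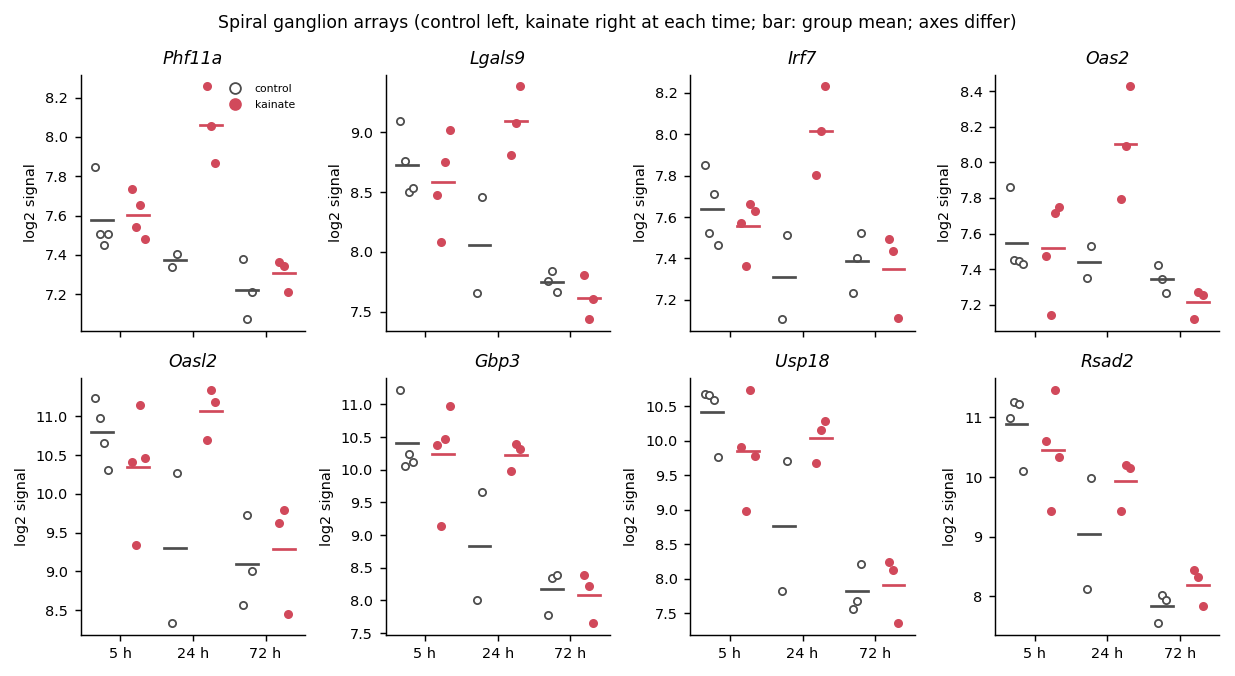
Log2 signal of 8 genes on the SG arrays, with control (open) to the left and kainate (filled) to the right at each labelled time, bars for group means and a separate y axis for each gene. At 24 h Phf11a reads 7.34 and 7.40 in control and 7.87 to 8.26 after kainate, and Usp18, Gbp3 and Oasl2 show the wide gap between the 2 control arrays.

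The count rested on the same control array as the fall at 24 h. On leaving out control array 2, only the picked gene Phf11a passed, and on leaving out control array 3, 13 genes did. In the first case the difference was 0.50 for Irf7 and 0.64 for Lgals9. The kainate arrays of SG at 24 h belonged to 2 of the 5 batches and the control arrays to 2 others, so that no value within a batch can be had. Macrophage markers also stood higher after kainate at this time: 2 of 20 passed (median 0.55), against 0.665% of all probes higher. The mean of the macrophage list was 9.33 to 9.90 on the kainate arrays and 8.38 and 9.32 on control arrays 2 and 3. Of 9 Schwann and satellite glia markers 1 passed (list mean 9.65 to 9.71 after kainate, 9.07 and 9.48 in control), of 12 fibroblast markers 1 (11.16 to 11.65, against 10.79 and 11.08) and of 14 endothelial and pericyte markers none (9.11 to 9.33, against 8.84 and 9.09). In these 4 lists the kainate arrays lay above both control arrays, narrowly so for the macrophage list. In the other lists the arrays overlapped. The neuron list read 9.408 to 9.615 after kainate and 9.347 and 9.411 in control. The hair cell list read 8.762 to 8.965 against 8.718 and 9.329, and that of supporting cells and epithelium 10.528 to 10.968 against 10.71 and 10.989. Their part in the result was not tested.

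The kainate effect at 24 h was set against the other tissue and the earlier time. It was greater in SG than in OC for 3 of the 36 at an unadjusted p under 0.005 (0.233% of all probes), the picked Phf11a (0.62 ± 0.16), Irf7 (0.66 ± 0.20) and Oas2 (0.65 ± 0.21), and for none at an adjusted p under 0.05 (0% of all probes). It was greater at 24 than at 5 h in SG for 6 of the 36 (0.623% of all probes), again with none past the adjusted threshold (0.00778% of all probes). Beside the picked Phf11a and Lgals9 these were Irf7 (0.79 ± 0.18), Oas2 (0.69 ± 0.19), Oasl2 (2.23 ± 0.61) and Usp18 (1.85 ± 0.53). Without control SG array 2 at 24 h, 1 of the 6 passed.

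At 5 h no member passed in either tissue by limma, against 0.389% of all probes in SG and 0.136% in OC. In SG the median difference was -0.10 with 28 of the 36 below 0, and 2 of the 36 (842 of all 25697 probes) had an unadjusted p under 0.05, Irf9 (-0.29 ± 0.12) and Ifi35 (-0.26 ± 0.13). The sign of the SG median differed between batches. It was 0.11 with 28 of the 36 higher in 1 batch (1 kainate and 3 control arrays). In another it was -0.31 with 29 lower (1 array each). Within the same batches the OC medians were -0.13 and -0.21, from 1 array each. In OC the median was -0.15 with 27 of the 36 below 0, and 7 of the 36 had an unadjusted p under 0.05 (650 of all probes): Rtp4, Parp14, Usp18, Ifi35, Isg15, Ifit3 and Oasl2. Usp18 in OC at 5 h read 9.47, 9.11 and 8.88 in control and 7.89, 8.07, 8.37 and 8.68 after kainate (-0.89 ± 0.35, adjusted p = 1.00 by limma). Every kainate array lay below every control array, and the same held for Isg15, at 9.42, 9.17 and 9.18 against 8.24, 8.42, 8.91 and 8.56. A fit on the OC arrays alone passed 4 of the 36 at the study's threshold, and quantile normalization after background correction of the raw signals passed 1. The share of all probes under these fits was not taken, so the counts cannot be set against it.

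At 72 h none of the 36 passed in SG or OC by limma (0.179% and 0.257% of all probes), with 1 and 0 of them at an unadjusted p under 0.05 (698 and 790 of all probes). At 24 h in OC 1 passed: Parp9 (0.125% of all probes lower), at 7.46, 7.78, 7.72 and 7.75 in control and 7.21 and 7.27 after kainate. Parp9 was above background on no array, so no fold is given, and without kainate array 3 it did not pass.

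The rest of the pathway was read from lists of its other genes. Of 18 interferon genes with a probe, 15 were above background on no array, among them Ifnb1 and Ifng, the genes of interferon beta and interferon gamma. Ifna6 was above background on all 38 arrays at a mean of 8.75, Ifnz on 9 and Ifne on 1. None of the 18 passed with time in SG (control or kainate, 72 against 5 h) or with kainate in SG at 24 h. Ifna6 (0.28 ± 0.10) and Ifnz (0.20 ± 0.06) were higher in control SG than in control OC. Their adjusted p values were 0.032 and 0.023 by limma, and 11.1% of all probes were higher. Of 10 receptor and JAK-STAT genes, Ifnar1 was above background on no array, and Ifnar2, Ifngr1, Ifngr2 and Ifnlr1 on all 38. Between 5 and 72 h in control SG 2 of the 10 rose and none fell, against 8.18% of all probes higher and 7.26% lower. Ifnlr1, part of the interferon lambda receptor, rose by 1.03 ± 0.12 on the log2 scale (adjusted p = 1.8e-07), and its other probe above background by 0.80. Its brightest probe also rose in SG after kainate (0.92 ± 0.12), in control OC (0.63 ± 0.13) and in OC after kainate (0.57 ± 0.12). The brightest Ifngr2 probe rose by 2.10 ± 0.25, but its other 2 probes, above background on 38 and 32 arrays, differed by -0.14 and -0.19. Of the 10, 2 read lower with kainate in SG at 24 h by the study's threshold (0.432% of all probes), the same Ifngr2 probe (-1.14 ± 0.30) and Jak2 (-0.45 ± 0.13), with adjusted p values of 0.24 and 0.28 by limma.

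Of 57 further interferon-induced genes, 10 fell and 1 rose in control SG between 5 and 72 h, and 6 fell and 3 rose after kainate (against 7.26% and 7.38% of all probes lower). Cmpk2, a mitochondrial nucleotide kinase that neighbours Rsad2 in the genome, fell by 1.52 ± 0.16 and 1.03 ± 0.16 on the log2 scale. Cxcl10, a chemokine for T cells, fell by 1.98 ± 0.23 and 1.38 ± 0.23, and Parp12 and Gbp7 also fell in both. In SG at 24 h 3 of the 57 were higher after kainate (0.665% of all probes), Ifi27l2a (1.51 ± 0.45), Parp12 (0.46 ± 0.14) and Ifi47 (0.68 ± 0.22), with adjusted p values of 0.36 to 0.42 by limma. Between the tissues 14 of the 57 were higher and 2 lower in control SG, against 11.1% and 12% of all probes, among them Ifi27 (1.51 ± 0.11), Ccl5 (1.46 ± 0.20), Ifi27l2a (1.29 ± 0.23) and Ifi30 (1.23 ± 0.11). Of 17 genes that sense nucleic acid or induce interferon, 4 rose and 1 fell in control SG over time, and of 11 negative regulators 1 rose and none fell (8.18% of all probes rose and 7.26% fell).

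Within groups, most of the 19 often detected genes varied together from array to array. As a description over 38 arrays, which share the tissue, handling and batch of each sample, the deviation of a gene from its group mean was set against the mean deviation of the other 18. Pearson's r was 0.91 for Usp18, 0.89 for Igtp, 0.86 for Rsad2, 0.85 for Gbp3, 0.82 for Oasl2 and Ifit3 and 0.81 for Isg15 and Gbp2. It was lowest for Irf9 (0.46) and Irgm1 (-0.12). The mean deviation of the 19 had an r of 0.62 with that of 14 endothelial and pericyte markers, 0.46 with the macrophage list, 0.38 with the fibroblast list, 0.19 with the glia list, 0.05 with the neuron list, -0.29 with the hair cell list and -0.36 with the list of supporting cells and epithelium.

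Of the 14 genes that fell in control SG, 11 had a promoter window and 8 of these held the ISRE core (Ifit3, Isg15, Rsad2, Gbp2, Gbp3, Igtp, Phf11a and Lgals9). Of the 16 other genes with a window, 7 held it, among them Irgm1, Bst2, Stat2 and 4 genes that were above background on no array (Ifih1, Oas1a, Oas3 and Ifit1). Irf1, Oasl1 and Oasl2 fell and had no match in the window. Of the 5 genes called with kainate in SG at 24 h that had not been picked on it, 3 were among the 14 that fell with time in control SG (Oasl2, Usp18 and Gbp3). The comparisons have no arrays in common, and the overlap of their calls over all probes was not counted.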

How the data were processed

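The authors hybridized total RNA, labelled with the Ambion MessageAmp kit, to 1-colour Illumina MouseRef-8 BeadChips, 38 arrays in 12 groups of tissue, time and treatment. The deposited log2 values are the raw signals quantile-normalized between all arrays by the authors, and the deposited intensity values are the same signals before normalization. The deposited detection p-values compare each probe with background. Limma is named in the submitters' processing notes, and scanner software was not given in the sources used here. Quantile normalization gives every array the same distribution, so changes are relative to the other probes.

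One limma model (limma 3.58.1, R 4.3.3; group means, empirical Bayes, 26 residual degrees of freedom) was fitted to all 25697 probes and 38 arrays, and p-values were adjusted by Benjamini-Hochberg over all probes. Differences of log2 values are given with the SE or 95% confidence interval of the fit, two-sided throughout. Kainate effects, and differences between them, were called at an unadjusted p under 0.005 as in the study, with the adjusted p beside it. All other comparisons were called at an adjusted p under 0.05. The fitting code was tested on simulated data. Detection p under 0.01 counted as above background. Where a group was above background on no array, it was set at the lowest signal above background, or its own if higher, and "at least" marks the fold. Array number, not read depth, limits the precision.

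The genes and gene lists were chosen with earlier results of these data known. Values on every array were given for the picked genes, for up to 4 called genes of smallest p per comparison, and for bright genes of each role. Batches were read from the colours of a picture in the study. The study divided each explant into SG and OC, and SG and OC arrays of 1 number were taken as 1 explant. Deviations from group means correlated in 16 of 16 such pairs (0.16 to 0.58). Kainate and control arrays were not paired, though the correlation was over 0.1 in 11 of 15 pairs of 1 number. Explants were separate cultures, 4 per subgroup, and not all of them have an array here. Alternatives were neqc on the raw signals, detected probes only, the mean of a gene's probes, replicate number, explant or batch as a block, array weights, arrays of 1 tissue or of controls only, and each array left out. Within-batch differences for time and tissue were added after seeing the data. Shares of all probes called were taken for the main fit only. Gene symbols are those of the deposited table. The figures were drawn with matplotlib 3.10.9.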

Additional observations from a re-analysis of the deposited data

Results flagged for a closer look

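Of 76 combinations of an often detected gene and a group of 4 arrays (19 genes, 4 groups), 5 held an array far from the other 3 by Dixon's 95% criterion, and chance flags about 1 in 20. In control SG at 5 h, Usp18 was lowest on array 4, at 9.76 with the nearest at 10.59, and Gbp3 was highest on array 1, at 11.22 with the nearest at 10.24. In kainate OC at 5 h, Rsad2 was lowest on array 2 at 8.15, Irgm1 highest on array 3 at 13.75 and Lgals3bp highest on array 4 at 9.64. Without control SG array 4 at 5 h, 17 of the 36 genes passed between 5 and 72 h in place of 16, and without array 1 it was 15.

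A difference between groups was marked in 11 tests of an effect against itself in another tissue or time. The kainate effect at 24 h was greater in SG than in OC by 0.66 for Irf7, 0.65 for Oas2 and 0.62 for Phf11a on the log2 scale, with adjusted p values of 0.90 to 1.00 by limma. The kainate effect in SG was greater at 24 than at 5 h by 0.79 for Irf7, 0.69 for Oas2, 2.23 for Oasl2, 1.85 for Usp18, 0.66 for Phf11a and 1.17 for Lgals9, with adjusted p values of 0.13 to 0.37 by limma. Phf11a and Lgals9 were picked on SG at 24 h, and their values are a description. The change from 5 to 72 h in control explants differed between SG and OC by -2.03 for Rsad2 and -0.98 for Irf1.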

How the results depend on the processing

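For the fall with time in SG, 15 to 17 of the 36 genes passed in control SG between 5 and 72 h with single arrays left out, and 11 to 16 after kainate. The counts at 24 h turned on 1 array. In control SG between 5 and 24 h 7 passed, 0 to 12 with single arrays left out (0 without control array 2), 1 with neqc and 0 in a fit on the SG arrays alone. With kainate in SG at 24 h 7 passed, 1 to 13 with single arrays left out (1 without control array 2), and 1 at an adjusted p under 0.05. The difference of that effect from the one in OC gave 3 (1 to 4 with single arrays left out, 0 at an adjusted p under 0.05), and the difference from the one at 5 h gave 6 (1 to 15, and 0). SG against OC gave 14 (7 to 18 with single arrays left out, 8 with batch as a fixed block). The SG and OC difference of the change from 5 to 72 h gave 2 (0 to 3 with single arrays left out), 1 with neqc, 4 with the replicate block, 5 with explant as a random block and 4 with batch as a fixed or a random block. In SG after kainate between 5 and 24 h, 3 passed (0 to 3 with single arrays left out), 5 with batch as a fixed block or with array weights and 0 in a fit on the SG arrays alone.

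In control OC between 5 and 72 h 4 passed, and 1 to 3 with single arrays left out. In OC after kainate between 5 and 72 h 1 passed (0 to 3 with single arrays left out), 2 with neqc, explant as a random block or array weights, 3 with detected probes only or with batch as a fixed or random block, and 4 with the replicate block or the OC arrays alone. With kainate in OC at 5 h 0 passed, 1 with neqc and 4 in a fit on the OC arrays alone. With kainate in OC at 24 h 1 passed, 0 to 1 with single arrays left out, and 0 with detected probes only or at an adjusted p under 0.05. With kainate in SG at 72 h 0 passed, and 0 to 1 with single arrays left out. No single gene reversed its direction: 319 of its values under the other alternatives stayed on their side of the threshold and 19 lost it, and with single arrays left out 279 stayed and 66 lost it. The causes were not tested.

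The replicate number as a block (replicate block) gave 5 genes with kainate in SG at 24 h, 17 with time in control SG and 16 for SG against OC. Kainate and control arrays of 1 number were different explants, but their deviations from group means correlated over 0.1 in 11 of 15 pairs (median 0.24). The main fit did not model this. The 10 genes above background on no array, and the 7 on 1 to 4 arrays, have values near background, and their fitted differences are not folds.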
